A study of Glycine max with 2 samples.

Results

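The genes described here are 42 soybean Glyma models that the study's list of differential tags places in cell wall and membrane, lipid, sugar, protein, ribosome, flavonoid, nodulation and transporter categories, out of 78773 models measured. They were chosen through Digital Gene Expression (DGE), a method that counts short tags next to the last DpnII site of a transcript, in shoot tips of both lines. A tag entered the list when it reached a minimum count and differed by at least 2-fold between the lines, so the members were selected on both abundance and a difference in DGE. The categories named above hold 47 of the 167 listed tags, 5 of these 47 have no Glyma model, and the other 42 tags lead to 42 distinct models, all of which were found in both RNA-Seq tables. Of the members, 34 come from tags listed as higher in Clark standard and 8 from tags listed as higher in Clark glabrous. All values below are from RNA-Seq of a separate harvest of shoot tips, which the list did not use for its limits, and the tag counts were not used here.

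The RNA came from young shoot tips of greenhouse plants at about 4 weeks. Clark standard (CS) is the wild type with trichomes, and Clark glabrous (CG) is its hairless isoline, which carries the dominant P1 allele introgressed from line T145 by repeated backcrossing to Clark. An isoline of this kind can keep donor sequence beyond the selected locus. Each line has 1 library made from the tips of multiple plants, so the spread between harvests of a line is unknown and nothing was tested. In such bulk tissue, fewer cells of a type and less RNA per cell cannot be told apart. Expression is in RPKM, here alignments scaled to the length of the model and to the library's total of alignments. In this unit, levels of different genes can be compared per length.

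The plant cell wall is built from cellulose made at the plasma membrane, from hemicelluloses such as xyloglucan and from proteins and proteoglycans secreted into it. Epidermal cells and the hairs that grow from them also depend on lipid synthesis, for membranes and for the waxes and cutin of the cuticle. Protein turnover by ubiquitin and the proteasome, and supply of sugars from starch, go on in every growing cell of a shoot tip.

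The tags that chose the members are 16 bases long. The first sequences shown are those of the 3 pairs of members that share an annotation and whose tags are nearly the same, because they show how closely related members were told apart in the list. Capitals mark the bases that differ within a pair, and each sequence runs 5′ to 3′ from the base after the DpnII site.
Glyma14g37480, protein phosphatase 2C: gcattgaggtTaagat
Glyma02g39340, protein phosphatase 2C: gcattgaggtCaagat
Glyma15g09260, ubiquitin-protein ligase: caCgagtgttgttgag
Glyma13g29780, ubiquitin-protein ligase: caGgagtgttgttgag
Glyma17g37930, extracellular lipase EXL1: catctcaGGgacgttT
Glyma14g40200, extracellular lipase EXL1: catctcaCAgacgttC
With positions counted from 1 at the 5′ end, the phosphatase tags differ by T11C, the ubiquitin ligase tags by C3G and the lipase tags by G8C, G9A and T16C. None of the 47 tags holds a further GATC, the DpnII site.

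The next tags are those of the members whose RNA-Seq values lay farthest apart. The first 3 belong to models far higher in CG, and the last to the model with the highest CS/CG ratio among the members.
Glyma09g24190, heavy metal transport/detoxification protein: cgttagtcataagcat
Glyma07g05620, phosphatidylserine decarboxylase: atgctttcaagtttca
Glyma17g03390, COBRA-like protein COBL7: ctcttgatgcggtaat
Glyma09g41460, lipid transfer protein I: caccaactgcgactcc

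Most members were higher in the CG library. Of the 42 members, 32 had the higher RPKM in CG and 10 had it in CS, and the median RPKM of the members was 4.49 in CS and 14.9 in CG. An RPKM of 10 or more was reached by 14 members in CS and by 29 in CG. The exact share of all models at that level was not worked out, but ranks among the 78773 models give its place. Glyma13g09420, with 10.3 RPKM in CS, stood at rank 11234 in CS. Glyma11g35050, with 10.3 RPKM in CG, stood at rank 13962 in CG. More of all models thus lay above about that level in CG than in CS, as for the members. In all models above 0 in at least 1 library, 68.3% had the higher RPKM in CG and 31.7% had it in CS. After the median-centring described below, 6 members turned from CG to CS, and the share of all models higher in CG was 49.5%.

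**Figure D1:**
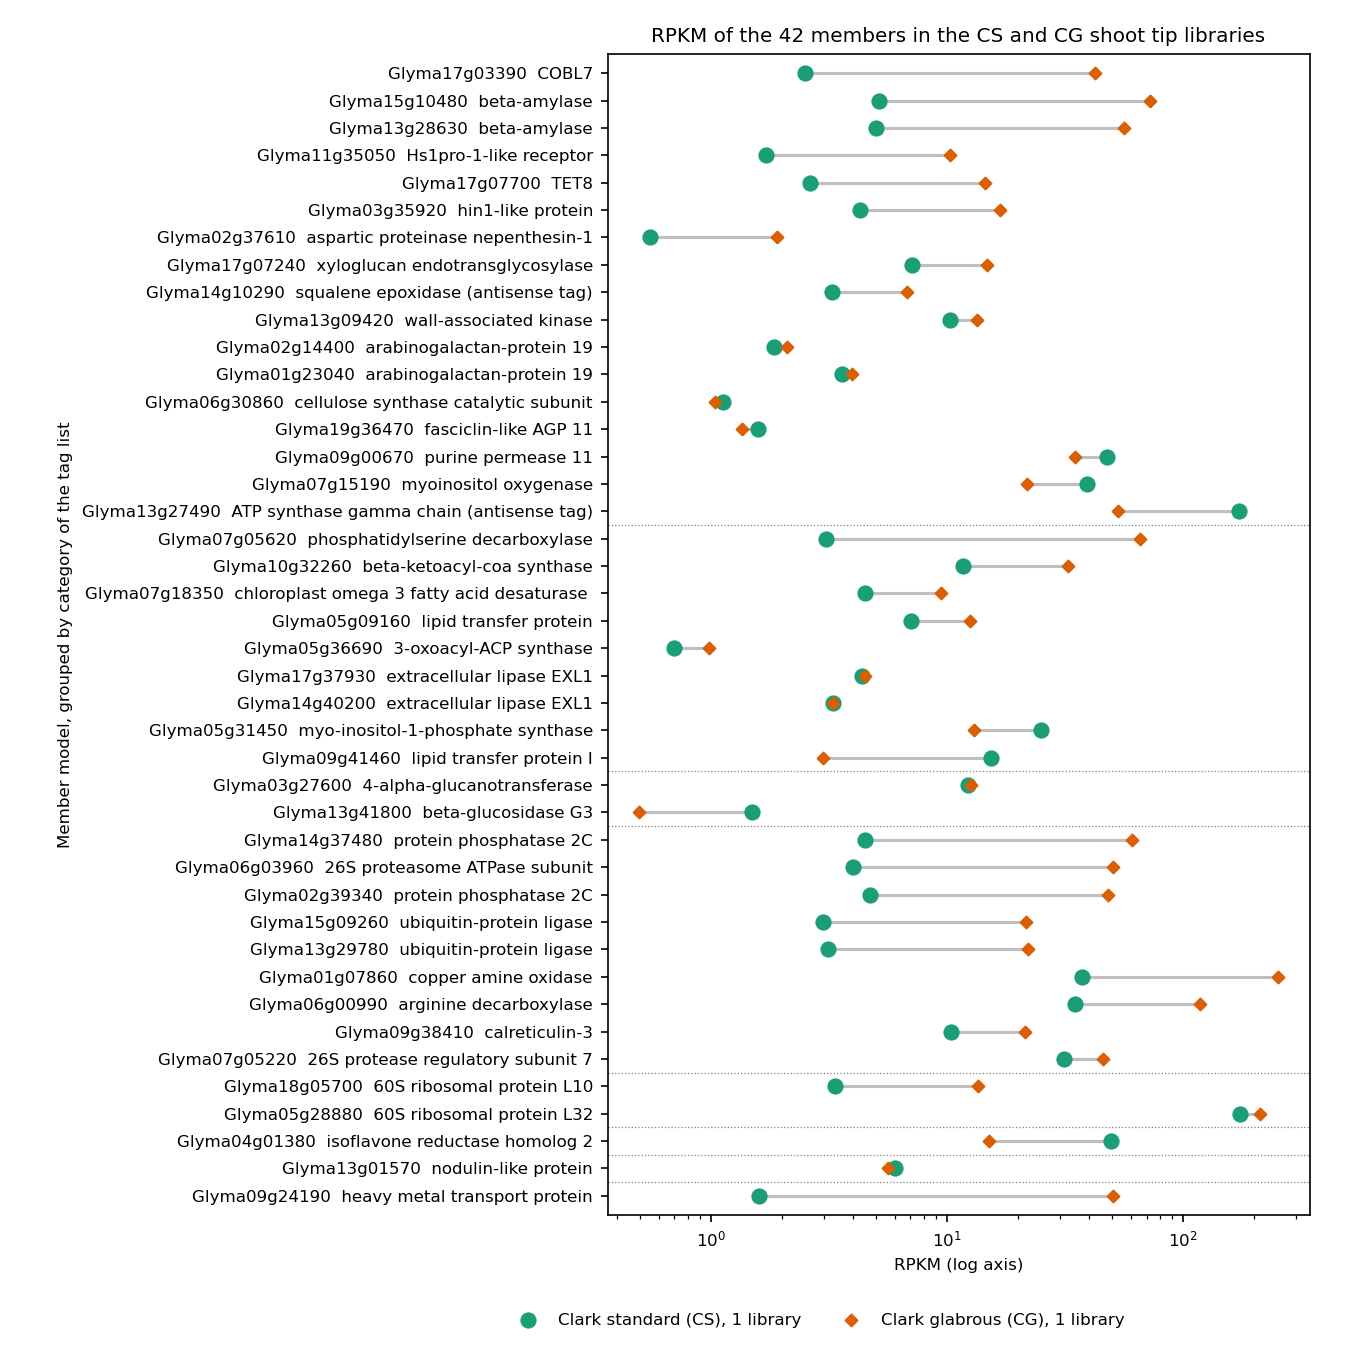
RPKM on a log axis of each of the 42 members in the CS library (circles) and the CG library (diamonds), 1 library per line, with dotted lines between categories. The CG value is the higher one for 32 members, and all 9 protein members lie to the right in CG.

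Ratios were taken as log2 CS/CG after adding 0.1 RPKM to each value, and 2-fold means a log2 ratio of at least 1 or at most -1. A model was used for ratios when its RPKM averaged at least 1 over the libraries. This minimum was passed by 40 of the 42 members. Of these 40, 22 were at least 2-fold higher in CG (55.0%) and 3 were at least 2-fold higher in CS (7.50%), while 15 were within 2-fold. Among all 43753 models past the same minimum, 13.9% passed 2-fold toward CG and 5.57% passed it toward CS. The median log2 ratio was -1.04 for the members and -0.34 for all models, and the members ranged from -4.89 to 2.33. The libraries differ in scale for the typical gene, so ratios were also taken after median-centring, in which CG values were multiplied by 0.788 to bring the median of all models to 0. After centring, 18 members were at least 2-fold higher in CG and 5 were at least 2-fold higher in CS, against 8.37% and 9.34% of all models. Glyma02g37610 passed the minimum through its CG value, with a CS value below 1 RPKM.

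**Figure D2:**
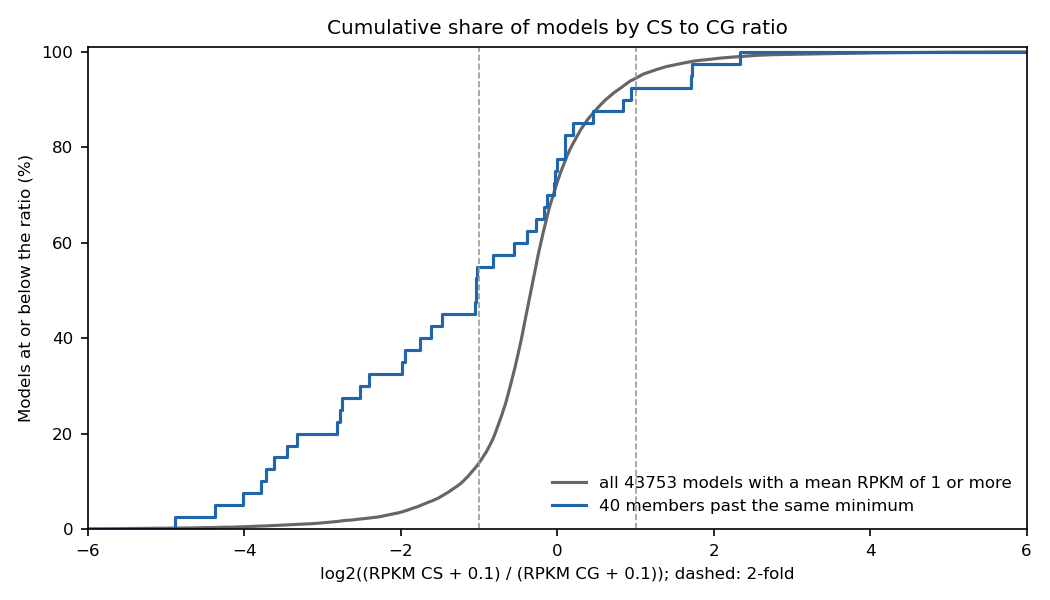
Percentage of models at or below each log2 CS/CG ratio, with 0.1 RPKM added, for the 40 members past the minimum (steps) and all 43753 models past it (curve). At a ratio of -1 the steps stand at 55.0% and the curve at 13.9%, and the lines run close together above 0.

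Depth was worked out from the RPKM values, which are whole multiples of 1 alignment on a model. The totals behind the normalization were 152791817 alignments in CS and 147273809 in CG. These are alignments and not reads. The paper reports fewer aligned reads for each library, with fewer in CS than in CG, which is the opposite order. Whole numbers of alignments were found for all 42 members, from 31 to 83012 per member and library, and gave exact 95% intervals for the ratios. Each number is the smallest possible, and the real one may be a multiple. The intervals cover counting error only, since a read could align to several models and differences between plants are not in them. Folds below are ratios of RPKM with nothing added.

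Members from either side of the list had similar medians in RNA-Seq. The 32 members of the CS-higher list past the minimum had a median log2 ratio of -1.05, and the 8 of the CG-higher list had -0.93. Of the 34 members of the CS-higher list, 8 had the higher RPKM in CS, against 31.7% of all models, and 14 had it after centring, against 50.5% of all models. Of the 8 members of the CG-higher list, 6 had the higher RPKM in CG before and after centring, against 68.3% and 49.5% of all models.

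The cell wall and membrane category is the largest, with 17 models from 19 tags. At least 2-fold higher in CG were 9 of the 17, at least 2-fold higher in CS was 1, and the median log2 ratio was -1.03. The shares over all models were 13.9% and 5.57%. Centring left 7 of the category past the limit toward CG and 2 toward CS. Its 8 wall polymer and wall protein members had 2 past the limit toward CG and 0 toward CS, and their median was -0.15 (0.18 centred). Most of the lean came from the other 9 members, of which 7 passed toward CG and 1 toward CS. Their median was -1.95 (-1.61 centred).

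Glyma17g03390 had the largest difference of the category. It is annotated as COBL7, of the COBRA-like family of surface proteins, whose founding member guides cellulose deposition in Arabidopsis. Its RPKM was 2.51 in CS and 42.2 in CG, which is 16.8-fold higher in CG (95% counting interval 15.7 to 18.1). Glyma17g07240, a putative xyloglucan endotransglycosylase, an enzyme that cuts and rejoins xyloglucan chains, had 7.12 RPKM in CS and 14.8 in CG. That is 2.07-fold (1.95 to 2.21), just past the limit, and it was within 2-fold after centring.

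Models annotated to other wall components were within 2-fold and most of them were low. Glyma06g30860, a cellulose synthase catalytic subunit, had 1.13 RPKM in CS and 1.04 in CG, and the interval of its CS/CG ratio, 0.849 to 1.38, includes 1. The models annotated as arabinogalactan-protein 19, a cell surface proteoglycan, had 3.60 RPKM in CS and 3.95 in CG for Glyma01g23040, and 1.85 in CS and 2.10 in CG for Glyma02g14400. Their ratios toward CG had intervals of 0.985 to 1.22 and 1.002 to 1.28. Glyma19g36470, a fasciclin-like arabinogalactan protein, had 1.58 RPKM in CS and 1.36 in CG. None of these 4 models differed by 2-fold before or after centring, and the arabinogalactan-protein 19 ratios turned toward CS with centring. Glyma13g09420, a putative wall-associated kinase, a receptor type that spans the plasma membrane and contacts the wall, had 10.3 RPKM in CS and 13.4 in CG. Glyma07g15190, a myo-inositol oxygenase, which makes glucuronic acid for wall polysaccharides, had 39.0 RPKM in CS and 21.8 in CG. Its ratio of 1.79-fold toward CS (1.72 to 1.85) is opposite to the list, which has its tag as higher in CG, and it passed 2-fold after centring with a log2 ratio of 1.18.

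Several models in this category are annotated with work inside the cell or at its membrane. The models annotated as beta-amylase, which releases maltose from starch, were both far higher in CG. Glyma15g10480 had 5.17 RPKM in CS and 72.7 in CG, and Glyma13g28630 had 5.005 RPKM in CS and 56.0 in CG. These are 14.1-fold (13.4 to 14.8) and 11.2-fold (10.6 to 11.8) higher in CG, so the pair made the next largest differences of the category after COBL7.

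The next models were all at least 2-fold higher in CG. Glyma11g35050, named for Hs1pro-1, a nematode resistance gene of beet, had 1.71 RPKM in CS and 10.3 in CG. Glyma17g07700, similar to the Arabidopsis tetraspanin TET8, a protein with several membrane-spanning parts, had 2.64 RPKM in CS and 14.5 in CG. Glyma03g35920, a hin1-like protein named for a harpin-induced gene of tobacco, had 4.26 RPKM in CS and 16.7 in CG. The ratios of these models toward CG were 6.04-fold (5.45 to 6.71), 5.49-fold (4.73 to 6.40) and 3.93-fold (3.62 to 4.26). Glyma02g37610, a putative aspartic proteinase, was the lowest of the category in CS, with 0.551 RPKM in CS and 1.90 in CG, a 3.45-fold difference (2.84 to 4.21). With a pseudocount of 1 RPKM this model was within 2-fold, at a log2 ratio of -0.90. Glyma09g00670, a purine permease, which carries purines across membranes, lay on the other side, with 47.6 RPKM in CS and 34.8 in CG, within 2-fold.

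Members of this category whose tags lie antisense to their model went in opposite directions. Glyma14g10290, squalene epoxidase of sterol synthesis, had 3.26 RPKM in CS and 6.78 in CG, which is 2.08-fold higher in CG (1.92 to 2.25) and was within 2-fold after centring. Glyma13g27490.2, a gamma chain of ATP synthase, had 172 RPKM in CS and 52.7 in CG, which is 3.26-fold higher in CS (3.17 to 3.36). The use of strand in the RNA-Seq is not given in the sources used here, so these values cannot be assigned to the sense or the antisense transcript. Without these members, 21 of 38 passed 2-fold toward CG and 2 passed it toward CS.

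The lipid category holds 9 models, of which 8 passed the minimum, and it held both the second lowest and the highest ratio of all members. Glyma07g05620, phosphatidylserine decarboxylase, which makes the membrane lipid phosphatidylethanolamine, had 3.07 RPKM in CS and 65.6 in CG. That is 21.4-fold higher in CG (19.7 to 23.3), the direction its tag has in the list. Glyma09g41460, lipid transfer protein I, a small secreted protein that binds lipids, had 15.4 RPKM in CS and 2.99 in CG. It was 5.16-fold higher in CS (4.59 to 5.81), also as in the list. The other lipid transfer protein, Glyma05g09160, had 7.03 RPKM in CS and 12.5 in CG, so the models of this name lay on opposite sides.

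Enzymes of fatty acid synthesis and modification were higher in CG or low. Glyma10g32260, a beta-ketoacyl-CoA synthase, the enzyme type that elongates very long chain fatty acids for waxes, had 11.6 RPKM in CS and 32.5 in CG, which is 2.80-fold higher in CG (2.69 to 2.91). Glyma07g18350, a chloroplast omega-3 fatty acid desaturase, had 4.48 RPKM in CS and 9.44 in CG, a 2.11-fold difference (1.98 to 2.24) that was within 2-fold after centring. Glyma05g36690, similar to a 3-oxoacyl-ACP synthase of plastid fatty acid synthesis, was below 1 RPKM in both libraries, with 0.696 in CS and 0.977 in CG, and did not pass the minimum. The desaturase is the only one of these 3 enzymes to lie just past the limit.

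The extracellular lipase models were nearly equal in both libraries. Glyma17g37930 had 4.34 RPKM in CS and 4.49 in CG, and Glyma14g40200 had 3.28 RPKM in CS and 3.30 in CG. Their ratios toward CG had intervals of 0.944 to 1.13 and 0.908 to 1.11, so a difference as large as 2-fold lies outside the counting error of either, and both ratios turned toward CS with centring. Glyma05g31450, myo-inositol-1-phosphate synthase, the first enzyme of inositol synthesis, had 24.98 RPKM in CS and 12.99 in CG. Its 1.92-fold difference toward CS is just inside the limit, is opposite to the list, and passed 2-fold after centring, with a log2 ratio of 1.28. Thus both inositol enzymes among the members, this synthase and the oxygenase Glyma07g15190, were higher in CS although their tags are listed as higher in CG.

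The sugar category has 2 members. Glyma03g27600, a 4-alpha-glucanotransferase, which rearranges glucan chains from starch, had 12.3 RPKM in CS and 12.6 in CG, with an interval of 0.987 to 1.06 for the ratio toward CG, which turned toward CS with centring. Glyma13g41800, beta-glucosidase G3, an enzyme type that releases glucose from glycosides, had 1.49 RPKM in CS and 0.498 in CG and did not pass the minimum. Its CS/CG ratio of 2.98-fold rests on as few as 96 and 31 alignments, with an interval of 1.97 to 4.63.

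In the protein category, CG had the higher value for all 9 models, against 68.3% of all models. At least 2-fold higher in CG were 8, and 7 after centring, against 13.9% and 8.37% of all models. The median log2 ratio of the category was -2.78. Glyma06g03960, an ATPase subunit of the proteasome, the complex that unfolds and degrades ubiquitin-tagged proteins, had 4.00 RPKM in CS and 50.3 in CG, which is 12.6-fold higher in CG (11.8 to 13.5). Glyma07g05220, also annotated as a proteasome regulatory subunit, had 31.2 RPKM in CS and 45.8 in CG, and was the model of the category within 2-fold. The annotated proteasome models therefore differed from each other in level in CS and in ratio.

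The ubiquitin ligases attach ubiquitin to target proteins. Glyma15g09260 had 2.98 RPKM in CS and 21.6 in CG, and Glyma13g29780 had 3.14 RPKM in CS and 22.1 in CG. Their ratios toward CG were 7.23-fold (6.82 to 7.67) and 7.05-fold (6.61 to 7.53), with intervals that overlap. The phosphatases of type 2C, a family that removes phosphate from proteins and includes regulators of abscisic acid signalling in Arabidopsis, had 4.50 RPKM in CS and 60.5 in CG for Glyma14g37480, and 4.71 in CS and 48.2 in CG for Glyma02g39340. These are 13.4-fold (12.6 to 14.3) and 10.2-fold (9.64 to 10.8) higher in CG, with intervals that do not overlap. Glyma09g38410, a calreticulin-3 precursor, a chaperone of the endoplasmic reticulum, had 10.4 RPKM in CS and 21.3 in CG, just past the limit at 2.06-fold (1.95 to 2.18) and within 2-fold after centring.

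Members of the protein category that act on polyamines were the most abundant of it. Glyma06g00990, arginine decarboxylase, an early enzyme of polyamine synthesis, had 34.8 RPKM in CS and 118 in CG, which is 3.39-fold higher in CG (3.34 to 3.45). Glyma01g07860, copper amine oxidase, which breaks polyamines down and releases hydrogen peroxide, had 37.1 RPKM in CS and 251 in CG, which is 6.77-fold higher in CG (6.64 to 6.90). The tag of the first is in the CS-higher list and that of the second in the CG-higher list. At rank 230 of 78773 models, the oxidase had the highest RPKM of any member in CG.

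The ribosome category has 2 members. Glyma05g28880, ribosomal protein L32 of the large subunit, had 175 RPKM in CS and 211 in CG and was the most abundant member in CS, at rank 446. Glyma18g05700, ribosomal protein L10 of the large subunit, had 3.35 RPKM in CS and 13.5 in CG, which rest on as few as 107 and 417 alignments. It was 4.04-fold higher in CG (3.26 to 5.05), while L32 was within 2-fold and its ratio turned toward CS with centring. The smallest lengths that give their values, 209 bases for L10 and 201 for L32, are short, so their alignments may be larger multiples.

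The remaining categories have 1 member each. Glyma09g24190, in the transporter category as a heavy metal transport/detoxification protein, had 1.59 RPKM in CS and 50.2 in CG. At 31.5-fold higher in CG (27.1 to 36.9), it had the largest difference of all 42 members, although its tag is in the CS-higher list. Glyma04g01380, in the flavonoid category as isoflavone reductase homolog 2, had 49.7 RPKM in CS and 15.05 in CG, which is 3.30-fold higher in CS (3.17 to 3.44). Glyma13g01570, a nodulin-like protein, had 5.999 RPKM in CS and 5.62 in CG.

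**Figure D3:**
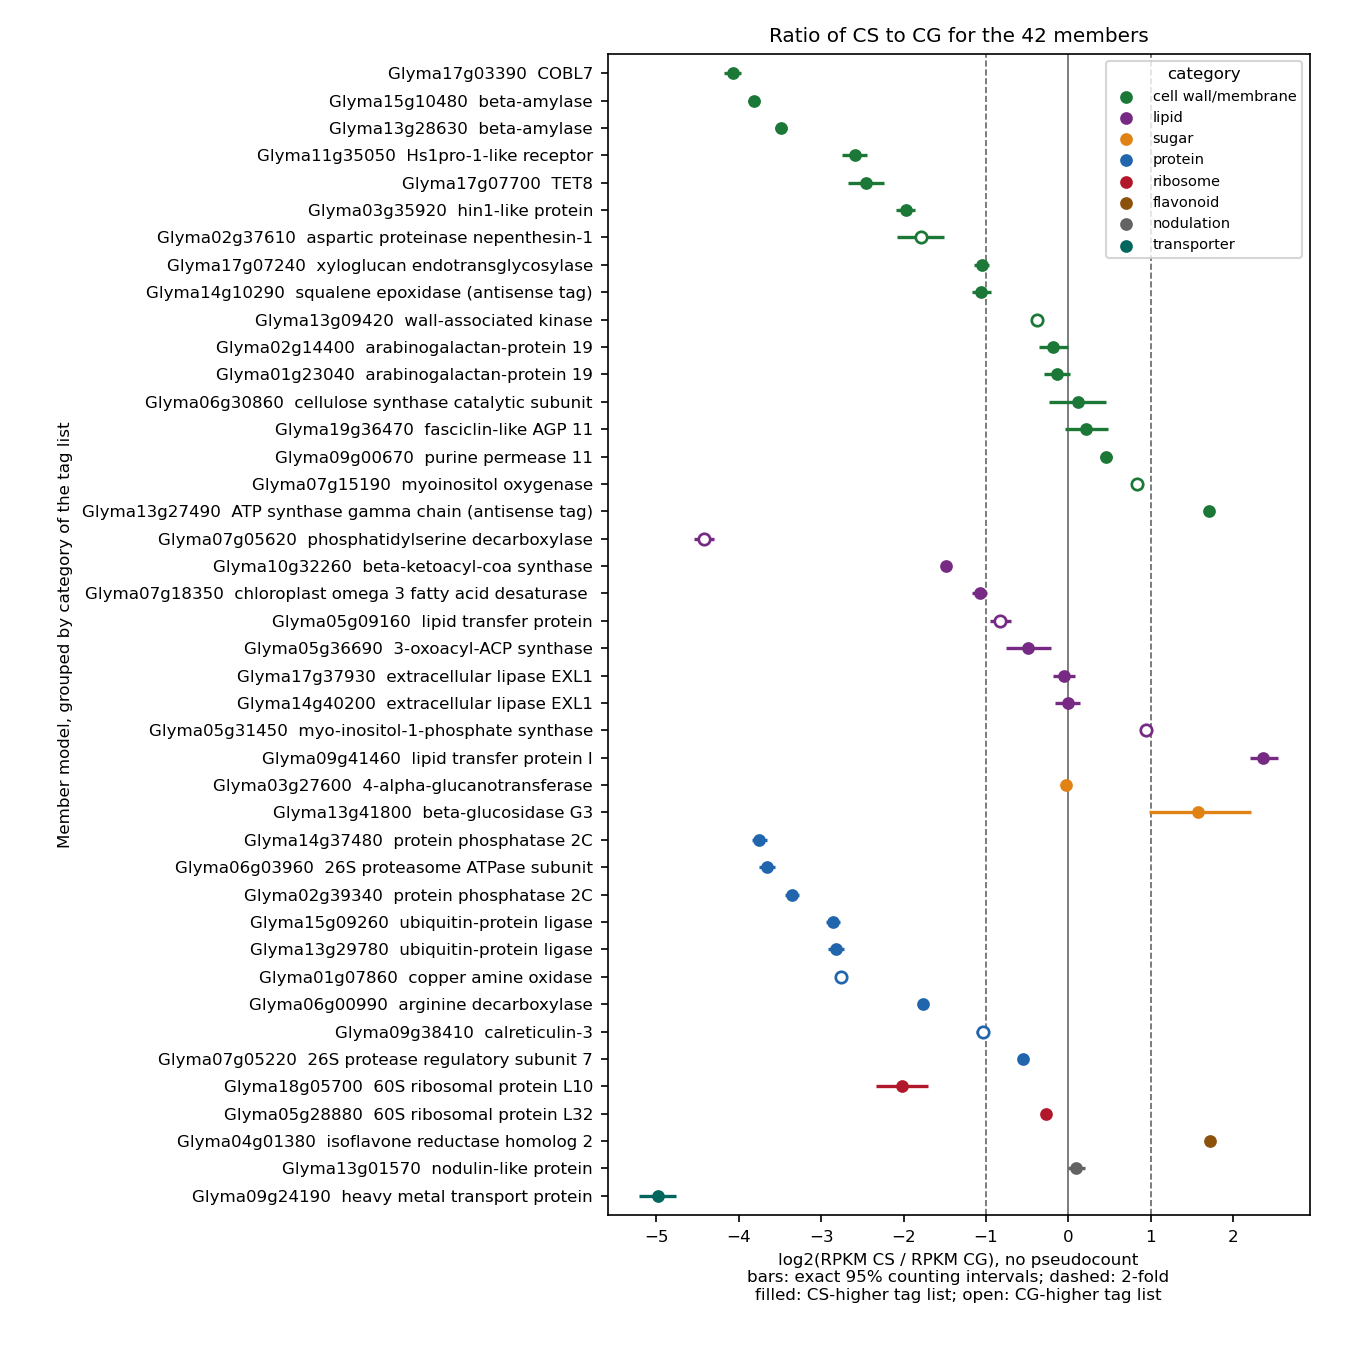
Log2 CS/CG ratio of each member without a pseudocount, with exact 95% counting intervals as bars, dashed lines at 2-fold, filled points for the CS-higher tag list and open points for the CG-higher list. The ratios run from the heavy metal transport protein at the low end to lipid transfer protein I at the high end, and filled and open points mix on both sides of 0.

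Of the members, 5 pairs have the same annotation word for word, each on different chromosomes, and within each of these pairs the log2 ratios differed by at most 0.39. Models with related but not identical annotations could differ far more, at 2.33 and -0.82 for the lipid transfer proteins and -3.62 and -0.55 for the proteasome subunits. The gaps were 0.03 for the ubiquitin ligases, 0.04 for the lipases, 0.04 for the arabinogalactan proteins, 0.33 for the beta-amylases and 0.39 for the phosphatases. The tags of the lipases, phosphatases and ubiquitin ligases differ at 1 to 3 of 16 bases, while those of the beta-amylases differ at 14 and those of the arabinogalactan proteins at 11. Since the authors allowed up to 3 mismatches and 25 alignments per read, a read of 75 bases could count on both models of a pair, and how far this shaped the likeness was not tested.

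**Figure D4:**
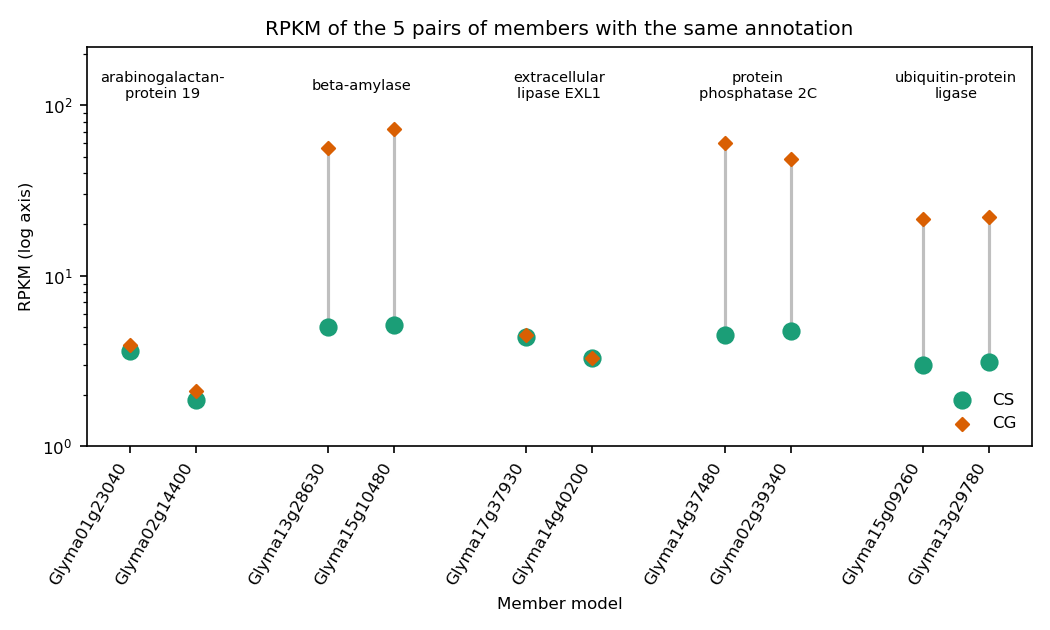
RPKM on a log axis in CS (circles) and CG (diamonds), 1 library each, for the 5 pairs of members with the same annotation. The beta-amylases, phosphatases and ubiquitin ligases are wide apart between the lines in both models of each pair, and the arabinogalactan proteins and lipases are close in both.

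At 9 of the 42 loci the tables hold more than 1 model, and within these loci the log2 ratios spanned at most 0.15. The widest spans were at Glyma09g38410, where the second model had 15.4 RPKM in CS and 28.5 in CG, and at Glyma05g31450, with 4 models. These spans matter at the limit, since the second model was within 2-fold at Glyma09g38410 (log2 ratio -0.89) and at Glyma14g10290 (-0.997), and the second model of Glyma05g31450 was past it toward CS. Summed over its models, Glyma09g38410 was within 2-fold, at -0.95. Models of 1 locus share most of their reads and are no replicates of each other.

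By the chromosome number in their names, the members lie on 16 chromosomes, with 6 members on chromosome 13 and no more than 4 on any other. Genome coordinates were not used here.

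Other categories of the same list did not all have this pattern, as a description with no test. All 5 models of the photosynthesis category were at least 2-fold higher in CS, against 5.57% of all models. They had 42.03 to 1406 RPKM in CS and 16.2 to 281 in CG. These models were chosen by a difference in DGE too, and no other photosynthesis genes were examined. Their part in the members' values was not tested. Of all models, 13.9% passed 2-fold toward CG and 5.57% passed it toward CS. In the transcription category 16 of 22 models past the minimum were at least 2-fold higher in CG and 0 in CS, with a median log2 ratio of -2.52. In the defense and stress category 9 of 13 were, with 0 in CS and a median of -2.34. In the hypothetical or unknown category 13 of 22 were at least 2-fold higher in CG and 3 in CS, with a median of -2.32. In the category named other, 16 of 40 were at least 2-fold higher in CG and 8 in CS, with a median of -0.37. The median of the protein members, at -2.78, lay close to those of the transcription and defense categories. Only in its median, at -0.43, did the lipid category lie close to all models, at -0.34. Its 8 models past the minimum ranged from -4.37 to 2.33, with 3 at least 2-fold higher in CG (37.5%) and 1 in CS (12.5%).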

How the data were processed

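RNA-Seq was analysed for 1 CS and 1 CG library. The authors mapped reads of 75 bases with Bowtie (version not given in the sources used here) to cDNA models predicted from the Williams 82 genome, allowing up to 3 mismatches and 25 alignments per read, and deposited RPKM values. No count test was used. Glyma names matched 0 entries of the RefSeq gene table, so annotations and categories come from the study's tag list, and tag sequences from the same list.

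Members and lists were chosen with earlier results of these data known. The rule for named genes was all 42 members, with ratios and intervals for those past 2-fold or in a pair, plus other models of member loci. Intervals of 4 further members (Glyma06g30860, Glyma07g15190, Glyma03g27600 and Glyma13g41800) were added after their values were seen. Log2 ratios used a pseudocount of 0.1 RPKM and a minimum mean RPKM of 1. Whole alignments (within 0.001) were recovered from the steps of the RPKM values, for 99.95% of 2000 models tried, and gave Clopper-Pearson intervals. Alternatives were pseudocounts of 1 and 0.01, no minimum or 10, median-centring, the same 75th percentile, summed models of a locus, 1 model per locus and leaving out antisense tags. The computations were tested on simulated data. Intervals were computed with SciPy 1.17.1, tables with pandas 2.3.3 and NumPy 2.4.6, and plots with matplotlib 3.10.9, under Python 3.11.15.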

Additional observations from a re-analysis of the deposited data

How the results depend on the processing

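No paired analysis was possible because CS and CG are represented by a single library apiece, which also means that none could be left out. Of 46 alternative values for the main counts and medians, 35 were close to the reported value, which for counts means within 1.5 times, and the median ratio of the members kept its sign. The median ratio of the members lay between -1.76, with a minimum of 10, and -0.70, after median-centring, against -1.04. Both of these medians were counted among the 35 close values, so closeness was a loose limit for medians. Members at least 2-fold higher in CS were 5 after median-centring and 5 with the same 75th percentile, against 3. CS-higher list members with the higher RPKM in CS were 14 with either scaling, against 8. Over all models, the number past 2-fold toward CS was 2438 with the settings of the report. It became 4060 with no minimum, 990 with a minimum of 10, 4087 after centring and 3984 with the same 75th percentile. The number past 2-fold toward CG was 6073 with those settings and became 1677 with a minimum of 10, 3661 after centring and 3758 with the same 75th percentile. With either scaling, the balance over all models thus turned from an excess toward CG to an excess toward CS. The minimum changes the number of models tested, and the scalings multiply all CG values. Of the members, 6 left the 2-fold limit and 2 entered it under at least 1 alternative. Those that left include Glyma13g41800, which did not pass the minimum and was not counted among the members past 2-fold. Under the scalings, 6 members within 2-fold changed the sign of their ratio. Members at least 2-fold higher in CG ranged from 16, with a minimum of 10, to 22. The 16 were out of the 25 members past that minimum, while the 22 with the settings of the report were out of 40. With a pseudocount of 1 RPKM they were 17 of 40.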

Other observations

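The loci next to the members in the order of Glyma numbers were looked at after the members' values were known, 3 on each side. Such loci whose RPKM averaged at least 1 numbered 154, taking the model with the highest mean at each and leaving out members. Of these, 24 were at least 2-fold higher in CG, against 13.9% of all models. At least 2-fold higher in CS were 14, against 5.57%. The shares here are over all models, while the neighbours are counted with 1 model per locus. The median log2 CS/CG ratio of the 154 loci was -0.33, close to the -0.34 of all models. Beside the 22 members at least 2-fold higher in CG, 16 of 82 loci were at least 2-fold higher in CG, against 13.9% of all models, and 4 were at least 2-fold higher in CS, against 5.57%. Their median log2 ratio was -0.41.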
